A study of Bos taurus with 16 samples.

Results

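The genes described here build and load major histocompatibility complex (MHC) class I molecules in cattle: the heavy chain genes BOLA and BOLA-NC1, the light chain gene B2M, the peptide transporter genes TAP1 and TAP2, the tapasin gene TAPBP, and the immunoproteasome subunit genes PSMB8, PSMB9 and PSMB10. Their members are all probes that the deposited table of group averages assigns to these 9 symbols, which gave 35 probes of 43653 on the array; 34875 of those probes carry any of 16966 symbols. Each probe is a DNA oligonucleotide of 60 bases, and its signal was read on all 16 arrays.

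MHC class I molecules sit on nearly all nucleated cells and show peptides from inside the cell to CD8 T cells and natural killer cells. The proteasome cuts proteins into peptides, the TAP transporter carries them into the endoplasmic reticulum, and tapasin holds the empty class I molecule near the transporter until a peptide binds; heavy chain and beta-2-microglobulin then travel together to the surface. White blood cells carry much class I, and interferons raise most of these genes together.

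The study asked how a commercial probiotic supplement affected gene expression in the blood of lactating female Holstein Friesian cows. In all, 10 cows were enrolled, 5 per arm. Blood of the LPS group came from the probiotic cows at day 60 and was given lipopolysaccharide (LPS, a component of bacterial cell walls) at 100 ng/ml outside the body, as a positive control. The probiotic group is blood of cows that had received the supplement, which holds yeast culture, products of Enterococcus, Lactobacillus and Bacillus bacteria and an Aspergillus extract, for 60 days. The untreated group is blood of cows that had received only water for 60 days, and the day 0 group is blood drawn before treatment. The labels of the day 0 samples name the probiotic arm; whether that pool also held RNA of the untreated cows could not be settled. All blood was drawn into ACD tubes and kept for 30 min at 37 °C in 5% CO2. RNA of a group's cows was pooled in equal amounts, so a group's 4 arrays repeat the hybridisation of a single pool, and p-values measure only the spread between such arrays and not that between cows. No slide held more than 1 group, so differences between slides and between groups cannot be told apart. The 16 arrays were scanned on 3 days, and the LPS and probiotic groups had theirs in common.

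The arrays differed in brightness and by place on the slide, and both touch every result below. A spot is called well above background by the scanner software's own test. In the outer rows, defined here as the 76 rows at each end of 532, 50.3% to 56.7% of spots were well above background in the probiotic group, against 17.3% to 29.7% in the inner rows; on the untreated arrays the shares were 13.8% to 19.1% and 11.2% to 18.0%. Repeat spots of 1 spike-in control, RNA of known sequence added during labelling, had a median of 141828 to 158697 scanner units in the outer rows of the probiotic arrays and of 31.9 to 115.3 in the inner rows. On the untreated arrays the same control had medians of at most 18.2 in the outer rows. LPS replicate 4 and day 0 replicate 4 were dimmer than the other arrays of their groups, with outer medians of 5175.2 against 217655 to 231556 in the other LPS arrays and 11624 against 76953.8 to 90767.1 in the other day 0 arrays. Among blood markers, HBB, the haemoglobin beta chain, was well above background on all 16 arrays.

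Of the 35 probes, 13 lay in outer and 22 in inner rows. A probe was tested when it was well above background on all 4 arrays of at least 1 group, which 22 probes were: 12 of the 13 outer ones and 10 of the 22 inner ones. A probe bright in 1 group only could pass through that group, so the tested probes are not a neutral sample of the 35. Of the 13 untested probes, 6 were not well above background on any array, with signals between -69.5 and 42.2 scanner units. The LPS arrays had 20 to 24 members well above background, the probiotic arrays 18 to 22, the untreated arrays 11 to 18 and the day 0 arrays 14 to 23.

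**Figure D1:**
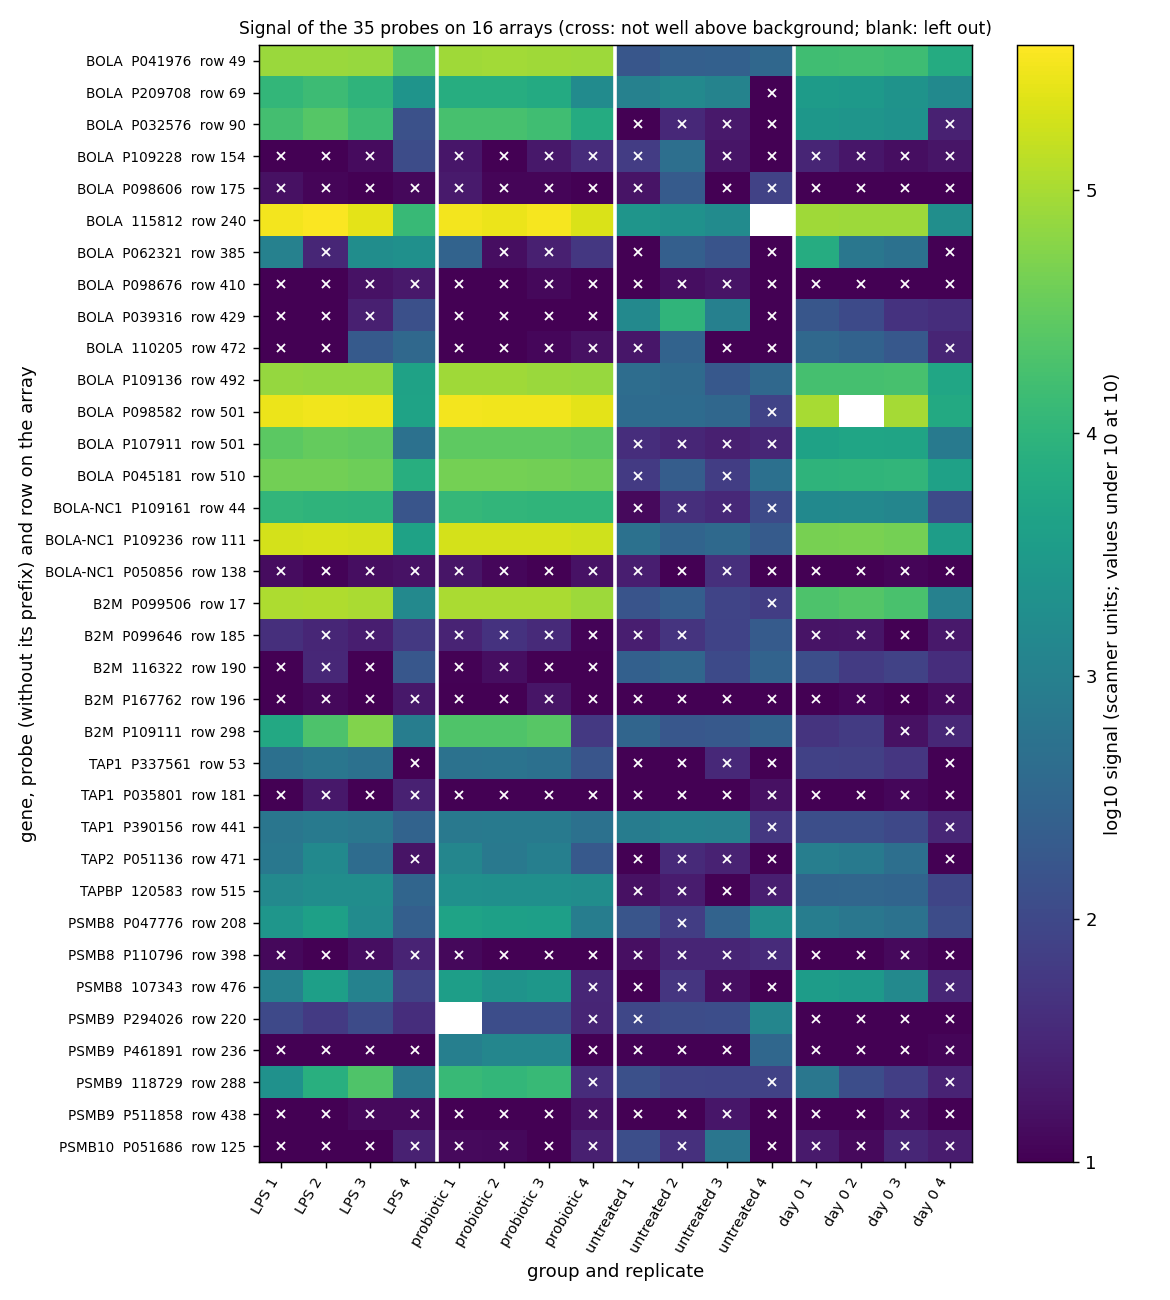
Signal of the 35 probes (rows, by gene and by row on the array) on the 16 arrays (columns) as log10 of background-subtracted scanner units; crosses mark spots not well above background and blank cells spots left out as outliers. The tested BOLA, BOLA-NC1 and B2M probes include the brightest cells in the LPS, probiotic and day 0 columns, and LPS replicate 4 is darker than LPS replicates 1 to 3 in the tested rows of these genes except BOLA A_73_P039316 and B2M A_73_116322, where it is brighter.

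Several probes of these genes share sequence, and the sets below were chosen because they hold probes that read very differently despite long shared runs. Other probes with long shared runs read alike. BOLA A_73_115812 (row 240) shares 37 bases with A_73_P098582 (row 501) and 41 with BOLA-NC1 A_73_P109236 (row 111). All 3 of these probes read at least 183087 scanner units on every probiotic array. The printed sequences are written 5′ to 3′ as the deposited table gives them, with capitals for the run shared with the partner named. No genome position is given, since the gene table used here follows a bovine assembly other than that of the array's design. In that table BOLA, BOLA-NC1, TAP1, TAP2, TAPBP, PSMB8 and PSMB9 lie on chromosome 23, where PSMB8, TAP1 and PSMB9 follow each other, while B2M lies on chromosome 10 and PSMB10 on chromosome 18. BOLA probe A_73_P107911 (row 501) shares 40 bases with A_73_P109228 (row 154) and 22 bases with A_73_P039316 (row 429).
A_73_P107911: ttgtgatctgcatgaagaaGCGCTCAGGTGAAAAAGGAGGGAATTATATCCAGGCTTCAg
A_73_P109228: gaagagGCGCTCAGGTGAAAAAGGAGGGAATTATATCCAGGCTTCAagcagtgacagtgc
A_73_P039316: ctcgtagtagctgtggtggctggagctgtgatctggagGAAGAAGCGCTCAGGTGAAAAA

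A_73_P107911 read 29289, 28614, 28763 and 26430 scanner units on the 4 probiotic arrays and 41, 31, 26 and 32 on the 4 untreated arrays. A_73_P109228 read 19, 4, 20 and 39 on the probiotic arrays and 66, 476, 18 and -27 on the untreated arrays. A_73_P039316 read 4, 0, 3 and 0 on the probiotic arrays and 1450, 10149, 1019 and -61 on the untreated arrays. The first probe was well above background on 4 of 4 probiotic arrays and on no untreated one, the second on no probiotic and 1 untreated array, and the third on no probiotic and 3 untreated arrays.

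A second BOLA set joins A_73_P109136 (row 492) and A_73_P062321 (row 385), which share 43 bases, with A_73_P041976 (row 49), which shares 31 bases with A_73_P062321.
A_73_P109136: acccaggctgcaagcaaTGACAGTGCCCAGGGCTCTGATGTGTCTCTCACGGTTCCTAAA
A_73_P062321: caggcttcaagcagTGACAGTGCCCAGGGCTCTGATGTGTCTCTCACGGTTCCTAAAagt
A_73_P041976: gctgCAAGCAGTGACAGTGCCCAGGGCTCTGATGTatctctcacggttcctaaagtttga

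On the probiotic arrays A_73_P109136 read 87042, 87037, 81877 and 77183 scanner units and A_73_P041976 read 86141, 91711, 86923 and 85199. A_73_P062321 gave 286, 15, 25 and 55 on the same arrays. On the day 0 arrays A_73_P062321 gave 6991, 659, 529 and -6. Both probes in outer rows were thus bright on every probiotic array and the probe in an inner row was well above background on 2 of 4; what part the row played in this was not tested.

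B2M has a pair of probes that are exact reverse complements over all 60 bases, A_73_P109111 (row 298) and A_73_P167762 (row 196). Bases 1 to 30 of the first and the matching bases 31 to 60 of the second are shown, because they target opposite strands of 1 stretch.
A_73_P109111: ctgtttccctgctctttaatactgatatgc
A_73_P167762: gcatatcagtattaaagagcagggaaacag

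A_73_P109111 read 5953, 20294, 53397 and 894 scanner units in the LPS group, 21826, 21825, 25047 and 59 on the probiotic arrays, 319, 175, 195 and 281 on the untreated arrays and 50, 62, 16 and 32 on the day 0 arrays. A_73_P167762 stayed between -21 and 20 on all 16 arrays and was well above background on none. On A_73_P109111, probiotic replicate 4 was well above background but far dimmer than the other 3 arrays of the same pool.

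The comparison of probiotic with untreated cows at day 60 asks what the supplement did to blood gene expression. Most class I heavy chain probes were higher in the probiotic group: of 11 tested, 9 were called higher and 1 lower. Of 3 tested B2M probes, 1 was called higher and 1 lower. TAPBP was called higher, and no transporter or immunoproteasome probe was. That contrast depends on the scaling: with the 75th percentile over all probes, TAP2, PSMB8 and PSMB9 were called higher through their brightest probes, with log2 differences of 2.67, 3.25 and 4.78 (adjusted p = 0.0186, 0.00335 and 0.00584). A probe was called at an adjusted p under 0.05 in limma and a fold of at least 2. Of the 22 tested members, 11 were called higher, 5 lower and 6 neither; of all 12249 probes tested, 10.4% were called higher and 59.8% lower. The members' median log2 change was 1.56, against -1.81 over all tested probes. Other scalings moved the split of calls: 18 members were called higher and 2 lower with the 75th percentile over all probes, 18 and 1 with the median, 15 and 2 with quantile normalization and 6 and 5 with cyclic loess. Over all probes, higher calls made up 14.8% of calls in the scaling used, and 82.4%, 96.4%, 70.4% and 20.3% in these 4. A lower call counts as measured only where the untreated group was well above background on at least 1 array. This held for 4 of the 5 members called lower. Over all probes it held for 4317 of the 7319 called lower, which is 35.2% of the 12249 tested. Signals were scaled on the 714 probes well above background on all 16 arrays, and their 75th percentile averaged 13.32 (log2 scanner units) on the probiotic arrays and 10.25 on the untreated arrays.

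The symbol BOLA stands for class I heavy chain, which holds the peptide. Its 14 probes differ in sequence and in the alleles and genes they can bind, so they need not read a single gene. Its brightest probe, A_73_115812, read 335472, 297763, 351465 and 214567 scanner units on the probiotic arrays and 2484, 2110 and 1655 on untreated replicates 1 to 3; untreated replicate 4 was left out as an outlier spot, so its fit used 3 untreated arrays. The groups did not overlap. The scaled log2 level was 4.85 ± 0.13 (SD, n = 4) in the probiotic group and 0.78 ± 0.37 (n = 3) in the untreated group, a log2 difference of 4.07 ± 0.78 (SE; 16.7-fold, limma adjusted p = 0.000223). Under cyclic loess scaling the same difference was -1.24, so its direction turns with the scaling.

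The other tested BOLA probes spread widely. A_73_P041976, A_73_P045181, A_73_P098582 and A_73_P109136 were called higher by 42.1-, 27.2-, 124- and 29.8-fold. For A_73_P032576 and A_73_P107911 no untreated array was well above background, so these are bounds of at least 16.2- and at least 33.6-fold. A_73_P209708, in outer row 69, had a log2 difference of -0.24 ± 0.63 (adjusted p = 0.743). A_73_P039316, the probe printed above with signal on 3 of 4 untreated arrays, was called the other way: no probiotic array was well above background, and it was at least 217-fold lower in the probiotic group (adjusted p = 1.54e-05).

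BOLA-NC1 encodes a non-classical heavy chain. Probe A_73_P109236 read 201369, 201408, 199958 and 183087 scanner units on the probiotic arrays and 526, 299, 376 and 209 on the untreated arrays. The groups were far apart, with a log2 difference of 6.13 ± 0.62 (69.9-fold, adjusted p = 1.74e-06). This probe shares 41 bases with BOLA probe A_73_115812 and 25 with A_73_P098582, so the 3 can bind the same RNA and the 2 symbols are not independent here. A_73_P109161, which shares no run of 15 or more bases with another member, was not well above background on any untreated array and was at least 12.8-fold higher in the probiotic group (adjusted p = 8.88e-05). The third probe, A_73_P050856 in inner row 138, was well above background on no array.

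B2M encodes the light chain that every class I heavy chain needs to reach the surface. Probe A_73_P099506, in outer row 17, read 104884, 103040, 103136 and 85173 scanner units on the probiotic arrays and 155, 238, 89 and 68 on the untreated arrays, 3 of which were well above background. On each probiotic array it lay at or above the 99.85th percentile of all probes, against the 80.24th to 91.59th on the untreated arrays. The log2 difference was 6.35 ± 0.73 (81.8-fold, adjusted p = 4.43e-06), and it was called higher in every limma fit run, with log2 differences between 2.46 and 10.55; the authors' deposited table of averages gives 0.94, with 0.78 for BOLA-NC1 and 0.20 for BOLA A_73_115812. Probe A_73_116322, in inner row 190, gave the opposite call: it read 11, 15, -2 and -11 on the probiotic arrays, none well above background, and 260, 330, 109 and 295 on the untreated arrays, and was at least 42.2-fold lower in the probiotic group (adjusted p = 2.99e-05). The 2 probes share no run of 15 or more bases. For A_73_P109111 the difference was 1.38 ± 1.35 (adjusted p = 0.367).

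**Figure D2:**
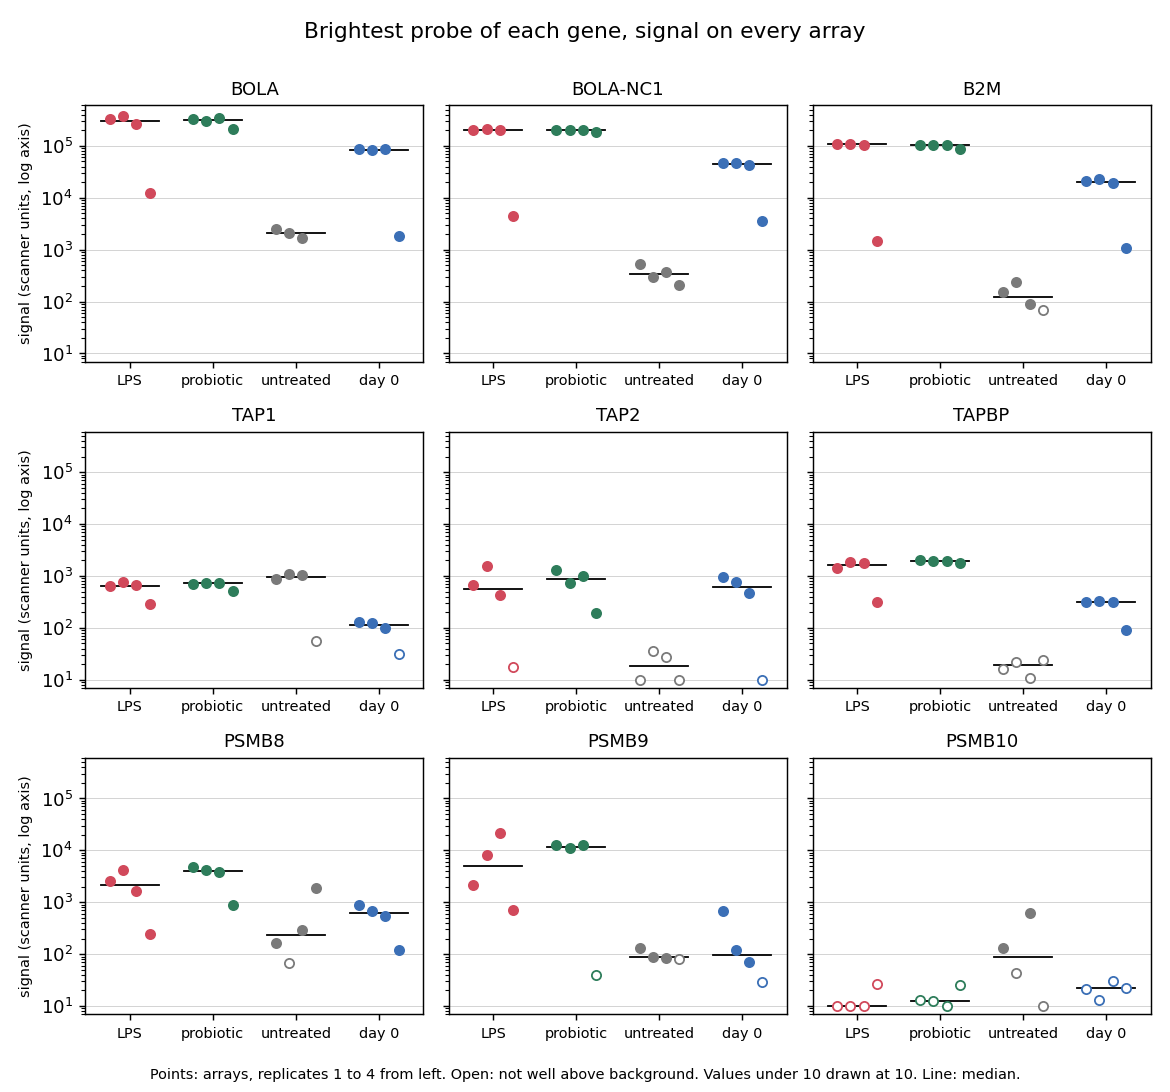
Background-subtracted signal (scanner units, log axis) of each gene's brightest probe on every array, with LPS, probiotic, untreated and day 0 groups from left to right, open circles for spots not well above background, values under 10 drawn at 10, and a line at the group median. BOLA, BOLA-NC1 and B2M lie at or above 85173 units on every probiotic array and at or below 2484 on every untreated array shown, while TAP1 overlaps between these groups.

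TAP1 and TAP2 form the transporter. TAP1 probe A_73_P390156 read 711, 747, 747 and 522 scanner units on the probiotic arrays and 867, 1085, 1049 and 56 on the untreated arrays, the last not well above background. These signals overlap; the log2 difference of -2.90 ± 0.56 (7.45-fold lower in the probiotic group, adjusted p = 0.000221) appears after scaling, against a median change of -1.81 over all tested probes. Scaled on all probes instead, it was 0.14 by the 75th percentile and 1.30 by the median, so the direction depends on the scaling; without untreated replicate 4 it was -3.66. A second TAP1 probe, A_73_P337561, read 540, 562, 506 and 162 on the probiotic arrays, and no untreated array was well above background; its fitted difference of -1.08 therefore measures no fall. TAP2 read 1305, 735, 979 and 190 on the probiotic arrays and was not well above background on any untreated array. Its difference of -0.37 ± 0.64 was not called (limma adjusted p = 0.614). The untreated values of TAP2 are only array floors, so this difference does not show equal levels.

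TAPBP encodes tapasin, which bridges the transporter and the empty class I molecule. Its only probe, in outer row 515, read 1997, 1982, 1922 and 1797 scanner units on the probiotic arrays and 16, 22, 11 and 24 on the untreated arrays, none of them well above background. It was at least 2.29-fold higher in the probiotic group (log2 difference 1.20 ± 0.29, adjusted p = 0.00135), and 1.62-fold, under the fold threshold, when only outer rows were scaled and tested. The call was also lost with the detrended signal (log2 difference 1.20, adjusted p = 0.148), with cyclic loess (0.83, adjusted p = 0.0715), and by size with normexp (0.95) and with array weights (0.93). The authors' deposited table of averages gives 0.27.

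The immunoproteasome subunits replace standard catalytic subunits and change which peptides are cut. PSMB8 probe A_73_P047776 read 4680, 4123, 3895 and 880 scanner units on the probiotic arrays and 165, 69, 297 and 1878 on the untreated arrays, which overlap, with a log2 difference of 0.22 ± 0.73 (adjusted p = 0.796). PSMB9 probe A_73_118729 read 12768, 11067, 12486 and 39 on the probiotic arrays and 131, 88, 86 and 80 on the untreated arrays. Its difference of 1.75 ± 1.29 was not called (adjusted p = 0.233), but without probiotic replicate 4 it was 3.59 (adjusted p = 0.000312), so 1 array decided the call. A second PSMB9 probe, A_73_P294026, shares 50 bases with it and lies in inner row 220; it read 123, 120 and 29 on the 3 probiotic arrays used, replicate 1 being left out as an outlier spot, and 94, 118, 124 and 1301 on the untreated arrays, and was called 19.4-fold lower in the probiotic group after scaling (adjusted p = 0.000162). PSMB10, with a single probe in inner row 125, was well above background on 2 untreated arrays and on no other array, and was not tested.

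Within the outer rows alone, scaled and tested by themselves which was chosen after the data had been examined, 7 of 12 tested members were called higher and 1 lower, against 11.4% and 58.9% of 6115 probes. The 7 are the 5 outer heavy chain probes of BOLA called above, BOLA-NC1 A_73_P109161 and B2M A_73_P099506, whose difference was 5.86 ± 0.70 there. The 1 lower is TAP1 A_73_P337561, which was dim on all untreated arrays and is not a measured fall. In the fit of all rows, the measured lower calls, of BOLA, B2M, TAP1 and PSMB9 probes, all came from inner rows. Of the 10 tested inner members, 3 were called higher and 4 lower in that fit. The shares called over all inner probes were not counted, so nothing about rows can be read from these member counts. In the fit of outer rows alone, 1424 of the 6115 probes were measured lower calls, so such calls are not confined to inner rows. In whole blood, fewer cells of a type and less RNA per cell cannot be told apart.

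**Figure D3:**
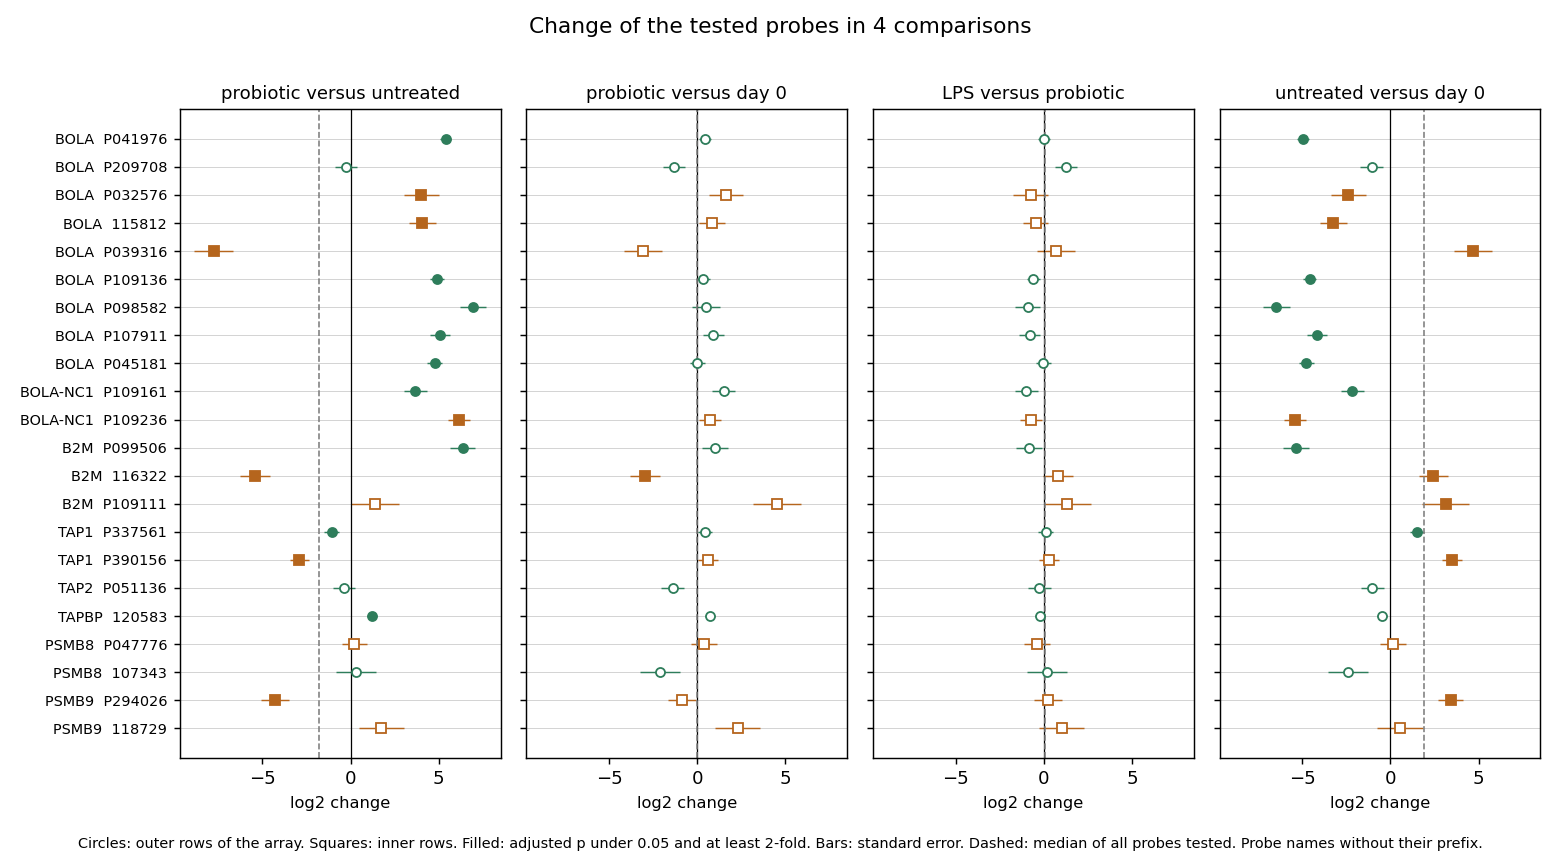
Log2 change with its standard error for the 22 tested probes in 4 comparisons; circles lie in outer and squares in inner rows, filled symbols were called, and the dashed line is the median of all tested probes. In probiotic versus untreated the called heavy chain circles lie between 3.67 and 6.95 while filled squares lie on both sides of 0, and in LPS versus probiotic no symbol is filled; the filled TAP1 P337561 is dim on all untreated arrays and is not a measured fall.

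Probiotic against day 0 sets the treated group beside blood drawn before treatment. No member was called higher and 1 of 22 was called lower, against 1.78% and 4.11% of all tested probes. An unadjusted limma p under 0.05 was found for 6 of 22 members and for 3501 of all 12249 probes, a similar share. The one lower call was B2M probe A_73_116322, not well above background on any probiotic array, against 126, 64, 80 and 40 scanner units on the day 0 arrays; it was at least 7.80-fold lower in the probiotic group (adjusted p = 0.0472), close to the threshold. The members' median log2 change was 0.47, against -0.02 over all tested probes. With the median over all probes as the scale, 10 of 22 were called higher and 0 lower, against 7093 and 169 of all 12249 probes. With the 75th percentile over all probes the members gave 2 and 0, against 1593 and 311 of all probes.

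In signal, 9 of 11 tested heavy chain probes and B2M A_73_P099506 read higher on every probiotic array than on any day 0 array. BOLA A_73_P039316 and B2M A_73_116322 read lower on every probiotic array, and BOLA A_73_P209708 and B2M A_73_P109111 overlapped. The share of all probes whose signals separate in this way was not counted, so nothing particular to class I can be read from these counts. Overall brightness was also higher on the probiotic arrays: the scaling percentile had a median of 13.43 over the probiotic arrays and of 11.41 over the day 0 arrays. B2M probe A_73_P099506 read 85173 to 104884 scanner units on the probiotic arrays and 21064, 23006, 18914 and 1066 on the day 0 arrays. After scaling its log2 level was 3.27 ± 0.22 in the probiotic group and 2.28 ± 1.22 in the day 0 group (SD, n = 4 each), a difference of 0.99 ± 0.73 (adjusted p = 0.379). BOLA A_73_115812 gave 0.84 ± 0.72 (adjusted p = 0.446) and BOLA-NC1 A_73_P109236 0.71 ± 0.62 (adjusted p = 0.458). Day 0 replicate 4 carries much of these differences: without it B2M gave 0.38 and BOLA -0.08.

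For the loading genes, TAP1 A_73_P390156 gave 0.61 ± 0.56 (adjusted p = 0.481) and TAPBP 0.73 ± 0.29 (adjusted p = 0.113). TAP2 read 1305, 735, 979 and 190 scanner units on the probiotic arrays, against 944, 772, 480 and 4 on the day 0 arrays. Its difference of -1.39 ± 0.64 was not called (adjusted p = 0.162), but reached -1.98 without day 0 replicate 4 (adjusted p = 0.0468). PSMB9 A_73_118729 gave 2.29 ± 1.29 (adjusted p = 0.248), and 4.13 without probiotic replicate 4 (adjusted p = 0.00249).

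Untreated against day 0 shares the untreated arrays with the first comparison and the day 0 arrays with the second, so it is no separate evidence on either. Here 6 of 22 members were called higher and 10 lower, against 63.1% and 6.79% of all tested probes; the members' median was -1.62, against 1.91 over all. With the 75th percentile over all probes the members' split was 0 higher and 14 lower, against 582 and 3006 of all 12249 probes. With cyclic loess it was 1 and 5, against 1186 and 527. The 10 lower calls were 9 heavy chain probes and B2M A_73_P099506. B2M A_73_P099506 was 41.3-fold lower in the untreated group (adjusted p = 3.93e-05), BOLA A_73_115812 9.37-fold lower (adjusted p = 0.00171) and BOLA-NC1 A_73_P109236 42.9-fold lower (adjusted p = 9.09e-06). On the log2 scale BOLA was -3.23, with -4.14 without day 0 replicate 4 and 0.64 under cyclic loess, where its direction turned. B2M was -5.37, and -5.98 without day 0 replicate 4. Of the 6 higher calls, 5 had an untreated array well above background, against 4329 of the 7733 higher calls over all tested probes. These 5 were BOLA A_73_P039316, B2M A_73_116322 and A_73_P109111, TAP1 A_73_P390156 and PSMB9 A_73_P294026, all in inner rows. With outer rows fitted alone, 1479 of 6115 probes were such calls, so they are not confined to inner rows. For TAP1 A_73_P390156 the signals were 867, 1085, 1049 and 56 scanner units on the untreated arrays and 127, 125, 100 and 31 on the day 0 arrays, with a difference of 3.51 ± 0.56 after scaling (adjusted p = 0.00015). It was 4.27 without untreated replicate 4, and 1.22 and not called with the 75th percentile over all probes (adjusted p = 0.194).

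LPS against probiotic at day 60 is the positive control, and it is the only comparison within 1 scan day. LPS binds the receptor complex of CD14 and TLR4 on monocytes and neutrophils and is known to raise cytokine genes. No member was called in either direction in limma, against 1.56% of all tested probes called higher and 0.098% lower. No member had an unadjusted p under 0.05, against 788 of all 12249 probes. The members' log2 changes lay between -1.0 and 1.34, with a median of -0.13, against 0.07 over all tested probes. On values simulated for this comparison's 12249 probes, 56% of changes of 2 and 92% of changes of 4 on the log2 scale were called, so smaller changes could be missed.

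B2M A_73_P099506 read 110353, 110952, 104003 and 1452 scanner units on the LPS arrays and 104884, 103040, 103136 and 85173 on the probiotic arrays. Except for LPS replicate 4, the groups lie close together; the log2 difference was -0.83 ± 0.73 (adjusted p = 0.928), and 0.08 without that array. BOLA A_73_115812 read 327730, 372809, 262550 and 12523 on the LPS arrays, against 214567 to 351465 on the probiotic arrays, and its difference was -0.47 ± 0.72 and 0.05 without LPS replicate 4. BOLA-NC1 A_73_P109236 gave -0.73 ± 0.62, and 0.01 without it. The signs of these 3 differences thus rested on 1 array.

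TAPBP read 1443, 1824, 1812 and 313 scanner units on the LPS arrays and 1797 to 1997 on the probiotic arrays, with a difference of -0.21 ± 0.29 (adjusted p = 0.928). TAP1 A_73_P390156 gave 0.30 ± 0.56 and TAP2 -0.25 ± 0.64. PSMB9 A_73_118729 read 2108, 7986, 21880 and 715 on the LPS arrays. Its difference from the probiotic group was 1.01 ± 1.29 (adjusted p = 0.928), and -0.83 without probiotic replicate 4. Of 9 genes listed as known early responders to LPS, 3 were tested: IL1B, CCL4 and NFKBIA. None was called or had an unadjusted limma p under 0.05. TNF, IL6 and TNFAIP3 were well above background on no array and were not tested. Also untested were IL1A and PTGS2, well above background on 3 and 1 LPS arrays and on no others. CXCL8, untested too, was well above background on 3 LPS, 3 probiotic and 2 untreated arrays.

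**Figure D4:**
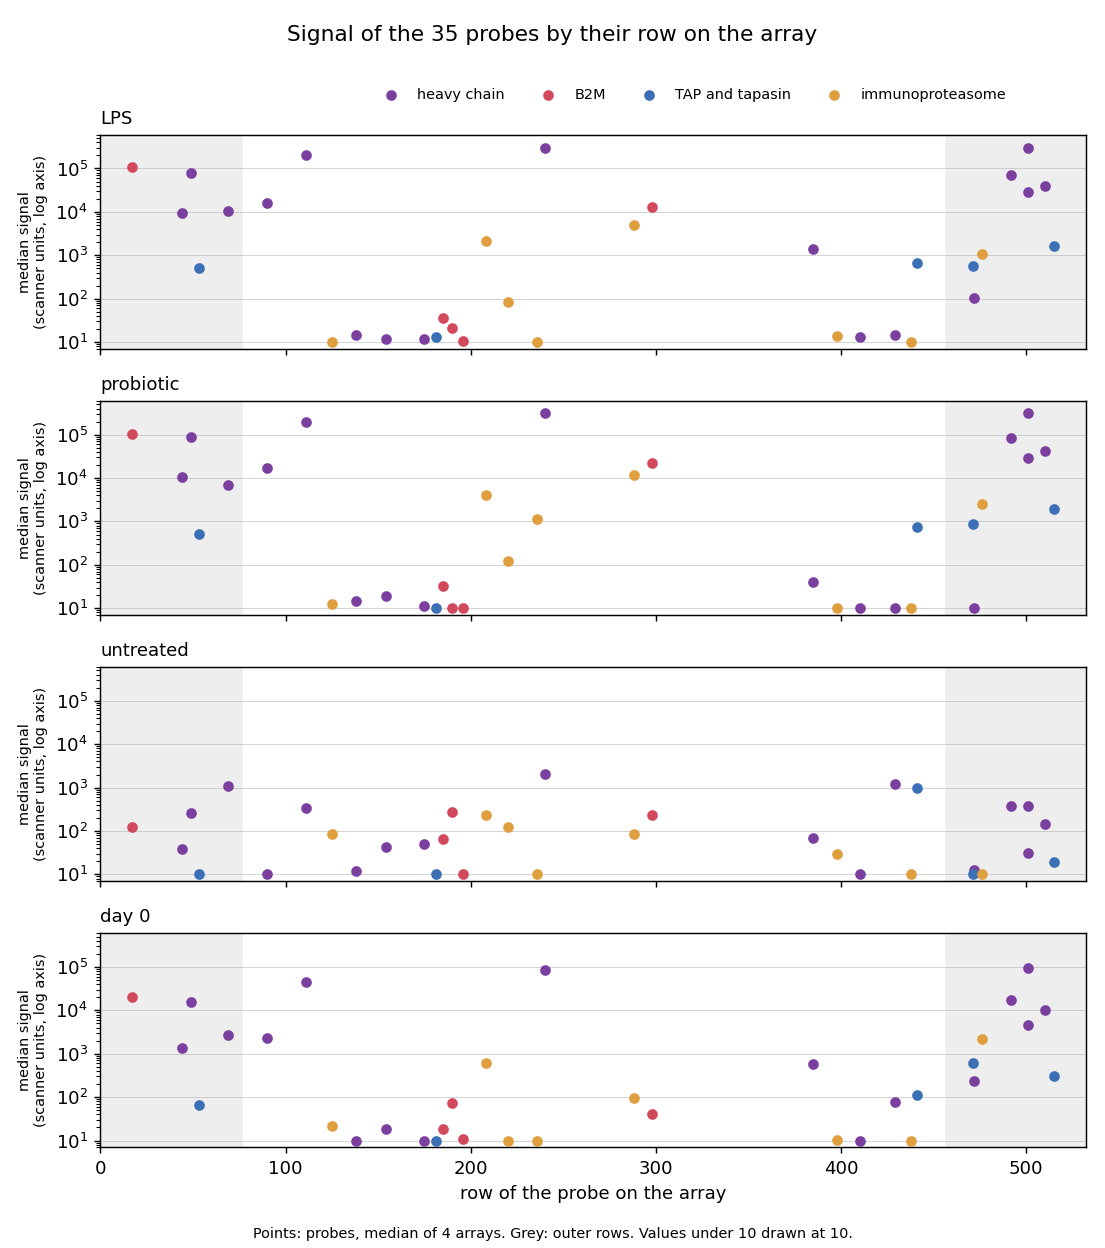
Median signal over the 4 arrays of a group (scanner units, log axis) for the 35 probes against their row on the array, with LPS, probiotic, untreated and day 0 from top to bottom; grey bands are the outer rows and colours the roles of the genes. In the LPS and probiotic panels the outer bands hold few points near 10 while rows 125 to 196 hold only points under 100, and in the untreated panel no point passes 2484.

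Other genes of the pathway were read through their brightest probe. Of 29 genes listed, 28 were on the array and 17 were tested. In probiotic against untreated 6 were called higher and 3 lower, 1 of the 3 measured, against 10.4% and 59.8% of all probes tested. In LPS against probiotic and in probiotic against day 0 none was called. An unadjusted limma p under 0.05 was found for 0 and 3 of the 17, against 788 and 3501 of all 12249 probes. PSME2, a subunit of the interferon-inducible proteasome activator, was at least 20-fold higher in the probiotic group than in the untreated group (adjusted p = 5.47e-05). CALR, the chaperone calreticulin of the loading complex, was at least 17.6-fold higher (adjusted p = 4.89e-07). POMP, which helps assemble proteasomes, and FCGRT, a class I-like chain that also pairs with B2M, were at least 9.19- and at least 5.71-fold higher. PSME3, another proteasome activator subunit, was 8.60-fold lower after scaling (adjusted p = 2.4e-05), with 2 of 4 untreated arrays well above background. ERAP2, an aminopeptidase that trims peptides, was dim on all untreated arrays and its fitted fall is not a measured one. The class I co-receptor genes CD8A and CD8B were tested and not called, with differences of 1.34 and -0.41.

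Markers of blood cells were called in both directions in probiotic against untreated. So were all tested probes, 10.4% of them higher and 59.8% lower, and the small counts below are to be read beside these shares. Of 4 general leukocyte markers, 2 were tested in probiotic against untreated and 1, CD53, was called higher; their summed signal ran from 19418 to 32294 scanner units on the probiotic arrays and from 25 to 7693 on the untreated arrays, and CORO1A was well above background on no array. Of 6 T cell markers all were tested, 2 were called higher and 3 lower, and their summed signal was 22573 to 28977 on the probiotic arrays and 497 to 1167 on the untreated arrays. Of 10 neutrophil markers, 8 were tested, 3 called higher and 3 lower, with sums of 64945 to 94845 and of 1113 to 1990; CXCR1 was well above background on no array. B cell markers summed to 21611 to 26798 on the probiotic arrays and 3138 to 9568 on the untreated arrays, and erythroid markers to 176813 to 236280 and 2284 to 35273. What part cell composition or overall brightness had in the class I differences was not tested.

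Over the 16 arrays, the tested brightest probes of the 8 genes had a mean profile that 5 probes outside the gene set followed most closely among 9848 candidates. They were annotated to CHRNA1 (Pearson r = 0.975), GABARAP (0.953), ATP5C1 (0.951), MAT2B (0.951) and NUMA1 (0.948). The 16 points come from 4 pools and share array brightness, so these values describe a likeness only.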

How the data were processed

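Blood RNA pools of 4 groups were measured on 16 one-colour arrays, 4 per group. Per the submitters' processing notes, the authors used Agilent Feature Extraction 10.10.1.1. Per the file headers, the deposited scanner files hold the background-subtracted intensity of each spot before detrending, the detrended processed intensity, and median spot and background intensities. The authors also deposited a table of log2 averages per group, whose centring is not stated; it gave the probe names, symbols and sequences.

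The background-subtracted intensity was used, since detrending had changed 4 arrays differently. The 1417 control spots per array and outlier spots were left out; none was saturated. Signals were set to at least the array's lowest signal among spots well above background, taken as log2, and scaled to the 75th percentile of the 714 probes well above background on all 16 arrays. All 16 arrays entered a single two-sided fit by limma 3.58.1 (lmFit, eBayes; R 4.3.3), with Benjamini-Hochberg adjustment over 12249 probes. Where a group was dim on all 4 arrays, a fold is a bound ("at least") that holds under this scaling only; no fold is given where the bound is under 1. Each gene is named by its brightest probe (highest mean over 16 arrays), other probes by counts or where they were called differently; 6 further pathway genes are named by size of change. Members and lists were chosen with earlier results of these data known. The test was checked on simulated data, and figures were drawn with matplotlib 3.10.9. Intensities have no counting depth; the number of arrays limits the precision. The mean signal was not in the files, so the normexp alternative used the median. Alternatives are in the closing section.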

Additional observations from a re-analysis of the deposited data

Results flagged for a closer look

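Each gene's brightest probe was looked at in each group for 1 array standing apart from the other 3, by Dixon's criterion. In all, 35 sets of 4 arrays were looked at and 10 had such an array, where chance gives about 1 in 20. Values are scaled log2 levels. On LPS replicate 4, BOLA-NC1 was 1.29 (4.18 to 4.39 on the other 3 LPS arrays), B2M was -0.31 (3.24 to 3.5) and TAP1 was -2.64 (-4.06 to -3.85). Probiotic replicate 4 gave -3.02 for PSMB8 (-1.49 to -1.43 on the others) and -7.29 for PSMB9 (-0.01 to 0.19). Untreated replicate 4 gave -3.31 for TAP1 (-0.35 to -0.13). Day 0 replicate 4 gave 1.26 for BOLA (4.85 to 5.03), 2.22 for BOLA-NC1 (3.93 to 4.04), 0.46 for B2M (2.80 to 3.02) and -4.34 for PSMB10 (-6.58 to -6.22). The PSMB10 probe was not well above background on any day 0 array, so its 4 values are only each array's floor and show no difference in level. The values of TAP1 on untreated replicate 4 and PSMB9 on probiotic replicate 4 are also floors, set against measured values on the other arrays.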

How the results depend on the processing

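Values are counts of probes or log2 changes, and the causes were not tested. The use of outer rows only, the removal of both dim arrays and the 2 together were added after the data were seen. In the authors' deposited table of averages, calls are by fold alone.

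For probiotic against untreated (11 higher, 5 lower), the counts higher were 18 with the 75th percentile or the median over all probes, 6 with cyclic loess, 7 with outer rows only, with or without the dim arrays, and 2 in the authors' averages. The counts lower were 2 with the all-probe percentile, 1 with the all-probe median, 2 with quantile normalization, 3 with normexp, 16 with no filter, 1 with outer rows and 2 with outer rows without dim arrays. Leaving out 1 array gave 11 to 13 higher and 4 to 5 lower.

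Against day 0 (0 higher, 1 lower), the probiotic group had 7 higher and 4 lower with the detrended signal, 2 and 0 with the all-probe percentile, 10 and 0 with the all-probe median, 1 and 0 with quantile normalization, 2 and 14 with no filter, 1 and 2 with only the 8 arrays, 2 and 4 with array weights, 2 and 6 without both dim arrays, and 7 and 11 in the authors' averages. Counts lower were 0 with cyclic loess, normexp and outer rows, and 3 with outer rows without dim arrays. With 1 array left out there were 0 to 3 higher and 0 to 3 lower. Over all probes, 4883 of 12249 were called higher and 2213 lower with the detrended signal, and 703 and 30835 of 43653 with no filter. The all-probe calls were 752 and 162 of 12249 with quantile normalization, 571 and 1193 with only the 8 arrays, and 1435 and 1999 with array weights. Without both dim arrays they were 1087 and 2638 of 14735.

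For LPS against probiotic (0 and 0), the authors' averages gave 4 higher and 16 lower by fold alone, and leaving out 1 array gave 0 to 1 in each direction. For untreated against day 0 (6 higher, 10 lower), counts higher were 3 with the detrended signal, 0 with the all-probe percentile or median, 2 with quantile normalization or normexp, 1 with cyclic loess, 17 with no filter, 1 with outer rows, with or without dim arrays, and 10 in the authors' averages; 5 were lower with cyclic loess. Single arrays left out gave 5 to 6 higher and 9 to 12 lower. Over all probes, 38921 of 43653 were called higher with no filter, where dim probes entered at their array's floor. The all-probe counts higher were 6409 of 12249 with the detrended signal, 2016 with quantile normalization and 4190 with normexp.

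Replicate numbers did not pair the samples (correlations of same-numbered LPS and probiotic arrays ran from -0.168 to 0.349). With the replicate number as a block, probiotic against untreated gave 11 and 5, probiotic against day 0 gave 1 and 1, LPS against probiotic 0 and 0, and untreated against day 0 gave 6 and 11.

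Signs turned as follows. In probiotic against untreated, BOLA was -1.24 with cyclic loess; TAP1 was 0.14 with the all-probe percentile and 1.30 with the median; TAP2 was 2.67 and 3.83 with these, 2.49 with quantile normalization, 0.24 with normexp and 0.12 in the authors' averages; PSMB8 was -0.85 with cyclic loess, -0.20 with normexp and -1.30 in the averages; PSMB9 was -1.62 in the averages. Leaving out 1 array gave TAP2 -0.61 to 0.05 and PSMB8 -0.47 to 1.09.

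In probiotic against day 0, cyclic loess gave BOLA -0.60, BOLA-NC1 -0.65, B2M -0.22 and PSMB8 -0.31, and the averages gave BOLA -1.54, BOLA-NC1 -2.40, B2M -1.83 and PSMB9 -1.40. BOLA was -0.08 with array weights and without both dim arrays, TAP2 0.52 with the all-probe median, and PSMB8 -0.07 with quantile normalization. With 1 array left out BOLA was -0.08 to 1.18.

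In LPS against probiotic, array weights gave BOLA 0.17, BOLA-NC1 0.08, B2M 0.10, TAP2 0.55 and PSMB9 -0.46; cyclic loess gave BOLA 0.41 and BOLA-NC1 0.03. Without both dim arrays BOLA was 0.05, BOLA-NC1 0.01, B2M 0.08, TAP1 -0.02 and TAP2 0.18, and in outer rows without them B2M was 0.32 and TAP2 0.42. TAP1 was -0.17 with the all-probe percentile and -0.59 in the averages, TAP2 0.17 with normexp and 0.02 with outer rows, and TAPBP 0.06 with outer rows. Leaving out 1 array gave BOLA -0.70 to 0.05, BOLA-NC1 -1.02 to 0.01, B2M -1.19 to 0.08, TAP1 -0.02 to 0.45, TAP2 -0.71 to 0.18 and PSMB9 -0.83 to 1.67.

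In untreated against day 0, BOLA was 0.64 with cyclic loess, and TAPBP 2.04 with the detrended signal and 1.04 in the averages. PSMB8 was -2.14 with the all-probe percentile or median, -1.27 with quantile normalization and -0.02 without both dim arrays. PSMB9 was -0.80 with the detrended signal, -1.74 with the all-probe percentile or median and -0.77 with quantile normalization. With 1 array left out PSMB8 was -0.72 to 0.84.

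B2M and BOLA-NC1 were called higher in probiotic against untreated in every limma fit that held their probe. The authors' averages gave both a smaller value, 0.94 and 0.78. Over all single-probe values, 544 kept direction and side of the threshold, 65 turned in sign, 29 newly passed the threshold, 10 no longer did and 16 moved without a test. The dim untreated arrays limit what can be read there: 11 to 18 of 35 probes were well above background.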
